A study of Homo sapiens with 2 samples.

Results

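Amino acid transporters carry amino acids across the plasma membrane and the lysosomal membrane. The genes described here are those of the SLC1, SLC3, SLC7, SLC36, SLC38 and SLC43 families, taken by gene symbol from the array's annotation with the brightest transcript cluster for each gene, a transcript cluster being the array's unit for a gene. They numbered 41 of 18417 measured genes. A single one of them, SLC7A6OS, is no transporter; it lies opposite SLC7A6 and matched by its symbol, which leaves 40 transporters.

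Total RNA came from ACHN, an established human kidney cancer line, called clear cell renal carcinoma in the labels. One group carried a short hairpin RNA (shRNA) against Kindlin-2, and the other a control shRNA. Both were transfected and cultured in minimum essential medium containing 10% FBS and 400 µg/ml G418, so antibiotic selection was shared by the groups. The labels do not say whether a group was a single clone or a pool, and each group was 1 array (n = 1), so no value has a replicate check, no test could be made, and every difference describes these 2 arrays.

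The transporters work in a few distinct ways. Members of SLC1 and SLC38 use the sodium gradient, or exchange, to bring in glutamate, glutamine and small neutral amino acids, and SLC36 members use protons. Most SLC7 proteins are light chains that reach the membrane only when joined to a heavy chain, SLC3A2 (CD98) or SLC3A1. CD98 also binds the tails of beta integrins, to which Kindlin-2 binds as well. In the kidney several of these proteins reclaim amino acids from the filtrate in the proximal tubule; inherited loss of SLC3A1 or SLC7A9 causes cystinuria, and that of SLC1A1 causes loss of glutamate and aspartate in the urine.

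Among the 41 genes the glutamate transporter SLC1A1 and the cystine-glutamate exchanger SLC7A11 were more than 2-fold higher in the Kindlin-2 shRNA array. The neutral amino acid transporters SLC38A6 and SLC1A4 were between 1.5-fold and 2-fold higher, and the light chain SLC7A6 was between 1.5-fold and 2-fold lower. The other 36 genes differed by less than 1.5-fold, among them the heavy chain SLC3A2 and the glutamine and leucine transporters SLC1A5, SLC38A1, SLC38A2 and SLC7A5.

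The bases before the annotated start are shown for SLC1A1, SLC38A6 and SLC7A6, the genes past 1.5-fold with a single start in the RefSeq promoter table of GRCh38.p14, and for SLC7A5, a light chain of the same family as SLC7A6 that stayed under 1.5-fold. The table held 33 of the 41 genes. It had no entry for SLC7A11, so no bases before that gene were searched for motifs. Each run is the 250 bases upstream of the start on the gene's own strand: chr9:4490218-4490467 (plus strand), chr14:60980995-60981244 (plus strand), chr16:68264276-68264525 (plus strand) and chr16:87869508-87869757 (minus strand). Capitals mark every match on either strand to TGATGNAA (the element bound by ATF4 with a C/EBP partner), TGACNNNGC (the antioxidant response element bound by NRF2), TGANTCA (AP-1), CACGTG (E-box) or GGGCGG (GC box).
SLC1A1: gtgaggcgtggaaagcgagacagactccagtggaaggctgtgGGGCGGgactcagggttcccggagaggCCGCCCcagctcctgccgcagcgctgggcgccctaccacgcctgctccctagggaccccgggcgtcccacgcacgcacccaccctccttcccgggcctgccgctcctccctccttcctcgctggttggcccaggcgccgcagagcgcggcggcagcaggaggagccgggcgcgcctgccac
SLC38A6: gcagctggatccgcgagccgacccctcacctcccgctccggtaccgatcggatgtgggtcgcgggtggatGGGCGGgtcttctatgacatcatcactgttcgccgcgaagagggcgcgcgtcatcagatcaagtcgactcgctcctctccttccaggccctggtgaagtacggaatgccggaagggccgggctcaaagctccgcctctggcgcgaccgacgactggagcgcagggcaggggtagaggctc
SLC7A6: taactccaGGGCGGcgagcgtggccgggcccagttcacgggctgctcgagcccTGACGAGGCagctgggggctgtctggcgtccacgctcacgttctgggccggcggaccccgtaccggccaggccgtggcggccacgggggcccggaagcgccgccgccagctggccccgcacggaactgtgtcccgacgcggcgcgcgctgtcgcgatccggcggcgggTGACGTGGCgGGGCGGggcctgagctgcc
SLC7A5: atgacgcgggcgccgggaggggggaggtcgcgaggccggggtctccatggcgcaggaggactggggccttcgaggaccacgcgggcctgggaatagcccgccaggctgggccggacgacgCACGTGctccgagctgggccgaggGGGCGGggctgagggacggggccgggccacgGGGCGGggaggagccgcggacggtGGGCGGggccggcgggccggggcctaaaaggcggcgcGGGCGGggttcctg

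The window of SLC1A1 held 2 GC boxes and that of SLC38A6 held 1, and neither had a match to the other 4 motifs. That of SLC7A6 held 2 matches to TGACNNNGC, which start 197 and 29 bases before the transcript start, and 2 GC boxes. That of SLC7A5 held an E-box 130 bases before the start and 4 GC boxes. Over all 35116 promoter windows of this length in the table, 42.6% held GGGCGG, 10.9% TGACNNNGC, 6.57% TGANTCA, 6.34% CACGTG and 3.14% TGATGNAA. TGATGNAA was matched in windows of 2 of the 33 genes, SLC1A3 and SLC1A5. TGACNNNGC was matched for 6 of these genes, TGANTCA for 7, CACGTG for 8 and GGGCGG for 25. The 33 genes had 55 windows, so these counts per gene cannot be set directly beside the shares per window. In a window of SLC3A2 the AP-1 and antioxidant motifs overlapped in the run TGACTCAGC. A gene can have several starts and so several windows, and a match describes letters only.

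FERMT2, which encodes Kindlin-2, had a log2 value of 8.26 with the Kindlin-2 shRNA against 9.37 with the control shRNA, or 46.4% of the control level, in the direction of the label. Of 10 kidney epithelial markers 9 were measured and all 9 were above the filter in at least 1 array. Their median difference was -0.44. At 1.5-fold, 1 was higher (the cadherin CDH6, 0.91) and 2 were lower (the cadherin CDH16, -0.83, and the lineage factor PAX2, -0.66). Of all 11822 genes above the filter, 5.1% were higher and 5.23% lower at this fold. PAX8, another kidney lineage factor, had 11.3 and 11.4. The filter kept a gene when the higher of its 2 values reached 6.52, the median of the table. CDH6 had 7.32 with the Kindlin-2 shRNA and 6.41 with the control shRNA, and CDH16 had 6.26 and 7.10. Each of these cadherins thus passed the filter only through the array where it was higher. Of 5 clear cell markers measured, 4 were above the filter: ANGPTL4 (difference 0.82, 1.77-fold higher), CD70 (0.45), VEGFA (-0.16) and CAV1 (-0.39). EGLN3 was below it, and CA9 and NDUFA4L2 were not analysed here. Of 7 proximal tubule markers measured, SLC34A1 (0.36), SLC22A6 (0.30) and SLC5A2 (-0.27) were above it and LRP2, CUBN, AQP1 and ANPEP below. SLC22A6 (6.79 and 6.49) and SLC5A2 (6.49 and 6.76) passed only through the array where they were higher. All 7 endothelial markers lay below the filter, as did 4 of 6 leukocyte markers and 3 of 7 fibroblast markers. The other 4 fibroblast markers were above it, and the filter kept 11822 of all 18417 genes. These counts thus do not show that fibroblast genes were low. The log2 values summed in the Kindlin-2 shRNA and control arrays to 37.2 and 38.1 for the endothelial markers, to 35.7 and 35.4 for the leukocyte markers and to 38.1 and 38.6 for the fibroblast markers; their part in the results was not tested. Of these markers PDGFRB alone passed 1.5-fold, with 6.31 against 7.08. It too passed the filter only through the array where it was higher. The fibroblast collagen COL1A1 differed by 0.17. In such bulk RNA, fewer cells of a type and less RNA per cell cannot be told apart.

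Counted over all 41 genes, 2 were at least 2-fold higher (4.88%) and none at least 2-fold lower, against 1.01% and 0.896% of all 18417 genes. At 1.5-fold, 4 were higher (9.76%) and 1 lower (2.44%), against 3.77% and 3.81% of all genes. Of the 41, 24 passed the filter and 17 did not. All 5 genes past 1.5-fold were among the 24, where the background over the 11822 genes above the filter was 5.1% higher and 5.23% lower at 1.5-fold, and 1.41% higher and 1.26% lower at 2-fold. The counts thus amount to a few genes, and the direction of the set as a whole was divided. The median difference, as Kindlin-2 shRNA minus control on the log2 scale, was 0.01 over the 24 genes and 0.00 over all 41 genes, beside -0.02 over all genes above the filter. Without SLC7A6OS the counts past each fold did not change and the median of the remaining 23 genes was 0.03. The differences of all genes above the filter had quartiles of -0.21 and 0.17; 8 of the 24 genes lay between these, 9 above and 7 below. Of the 24, SLC38A8 alone had a value under the filter in the other array.

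**Figure D1:**
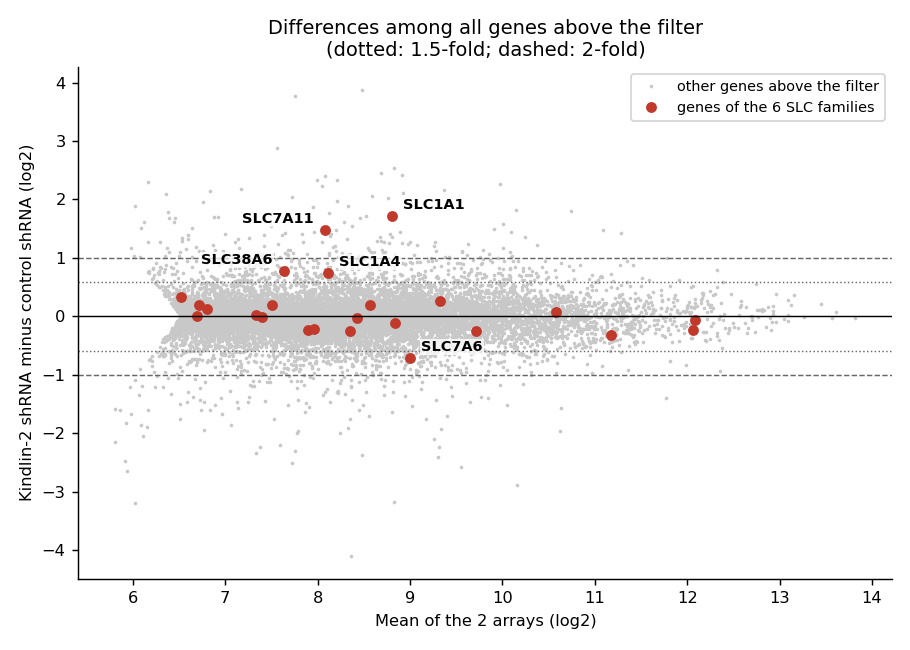
Difference between the Kindlin-2 shRNA and control shRNA arrays (log2, vertical) against the mean of both arrays (log2, horizontal) for the 11822 genes above the filter, grey, with the 24 genes of the 6 SLC families, SLC7A6OS among them, in red; dotted and dashed lines mark 1.5-fold and 2-fold. SLC1A1 and SLC7A11 lie above the upper dashed line, SLC38A6 and SLC1A4 between the upper lines, and SLC7A6 below the lower dotted line.

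SLC1A1 (EAAT3, transcript cluster 8154135) takes up glutamate, aspartate and cysteine and is the glutamate transporter of the renal proximal tubule. Its log2 value was 9.66 with the Kindlin-2 shRNA and 7.94 with the control shRNA. This 3.30-fold higher value was the largest difference among the 41 genes, and 30 of the 11822 genes had a larger increase. SLC1A1 lies on chromosome 9, whose genes were lower as a whole, with a median difference of -0.31 over 495 genes. The 50 measured genes nearest to it had a median of -0.40. Its difference of 1.72 was thus opposite in sign to that of its surroundings, and it was 2.12, or 4.36-fold, with the median of these neighbours subtracted.

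The other glutamate transporters, SLC1A2 and SLC1A3 of glial cells, SLC1A6 of cerebellar neurons and SLC1A7 of the retina, were all below the filter. Their values lay on both sides of 0, from -0.29 for SLC1A2 to 0.32 for SLC1A7. The table has no detection calls, so a gene below the filter may be dim or absent. SLC1A1 was therefore the single transporter of this kind above the filter.

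The remaining SLC1 members exchange neutral amino acids and differed in opposite directions. SLC1A4 (ASCT1), which carries serine, alanine and cysteine, had 8.48 in the Kindlin-2 shRNA array and 7.75 in the control array, a 1.67-fold higher value; 360 genes had a larger increase. SLC1A5 (ASCT2), the main glutamine exchanger of many tumour cells, had 9.58 and 9.84, a difference of -0.26. SLC1A5 was represented by a pair of transcript clusters on the array, and the dimmer cluster, 8029854, gave nearly the same difference, -0.25.

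**Figure D2:**
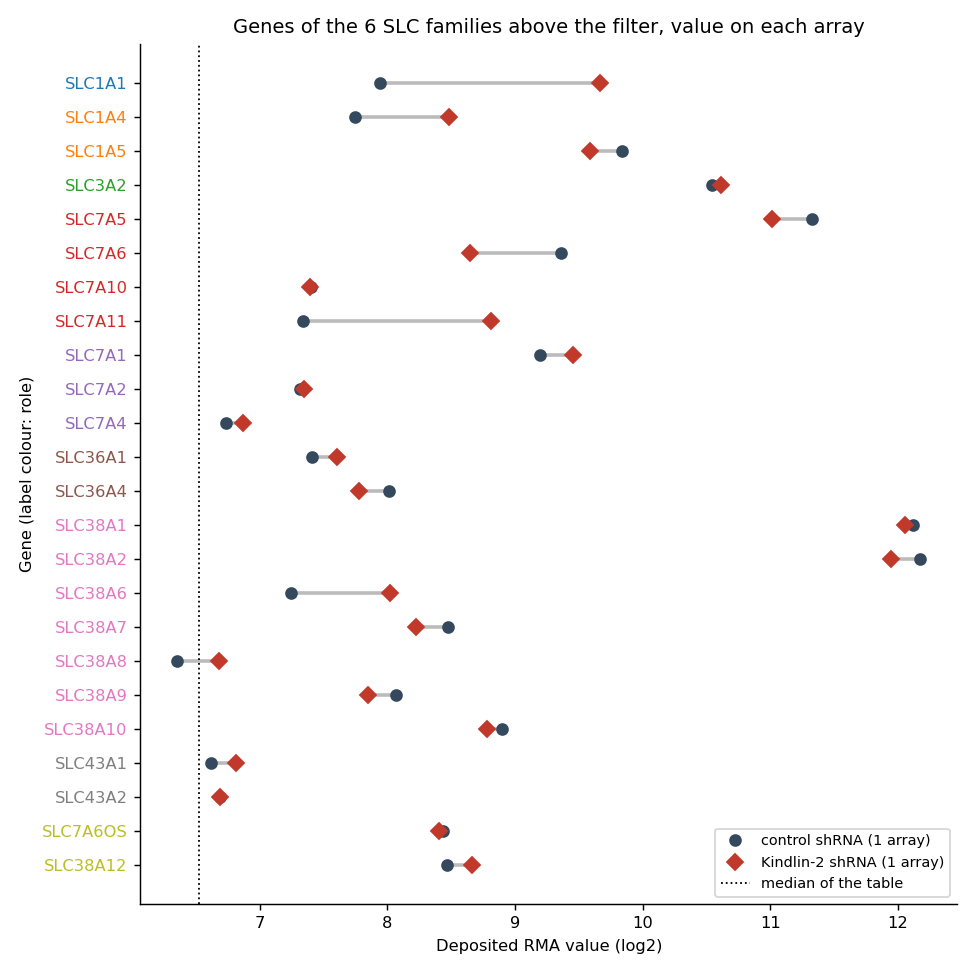
Deposited log2 value of each of the 24 genes above the filter in the control shRNA array (dark circles) and the Kindlin-2 shRNA array (red diamonds), 1 array each, ordered by role; the dotted line is the filter at 6.52. The widest gaps are those of SLC1A1 (7.94 to 9.66) and SLC7A11 (7.34 to 8.81), while the points of SLC3A2, SLC7A10 and SLC43A2 nearly coincide.

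The heavy chain SLC3A2 had nearly equal values, 10.6 in the Kindlin-2 shRNA array and 10.5 in the control array, a difference of 0.07. SLC3A1, the heavy chain of the cystine and dibasic amino acid transporter of the tubule, was below the filter with 6.09 and 5.84. No heavy chain therefore differed by 1.5-fold.

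The light chains that pair with SLC3A2 went both ways. SLC7A11 (xCT, cluster 8102800) imports cystine, the precursor of glutathione, in exchange for glutamate. Its value was 8.81 in the Kindlin-2 shRNA array and 7.34 in the control array, which made it 2.78-fold higher. A total of 47 of the 11822 genes had a larger increase. The 50 genes nearest to it on chromosome 4 had a median of 0.04, so its difference was 1.43 with this subtracted.

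SLC7A6 (y+LAT2), which exports arginine in exchange for glutamine and other neutral amino acids, was the largest decrease of the 41 genes. It had 8.65 in the Kindlin-2 shRNA array and 9.36 in the control array, a difference of -0.71, or 61.2% of the control level, and 369 genes had a larger decrease. With its neighbours on chromosome 16 subtracted the difference was -0.61, still 1.53-fold. The opposite-strand gene SLC7A6OS, whose annotated span overlaps the end of SLC7A6, had 8.41 and 8.44, a difference of -0.03. Overlapping genes on opposite strands can share signal where strands are not kept apart, and this was not tested; the decrease was seen for SLC7A6 alone of the pair.

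SLC7A5 (LAT1), the leucine transporter of many proliferating cells, had 11.0 in the Kindlin-2 shRNA array and 11.3 in the control array, a difference of -0.31 that stayed under 1.5-fold. SLC7A10, which carries small neutral amino acids, had 7.39 and 7.41. Of the 4 light chains above the filter, 1 was thus past 1.5-fold in each direction while their common heavy chain was nearly level. The other 4 light chains, SLC7A7, SLC7A8, SLC7A9 and SLC7A13, were below the filter and differed by -0.33 to 0.09. SLC7A9, the partner of SLC3A1, and SLC7A7 and SLC7A8 are the light chains by which the proximal tubule takes up and releases amino acids.

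**Figure D3:**
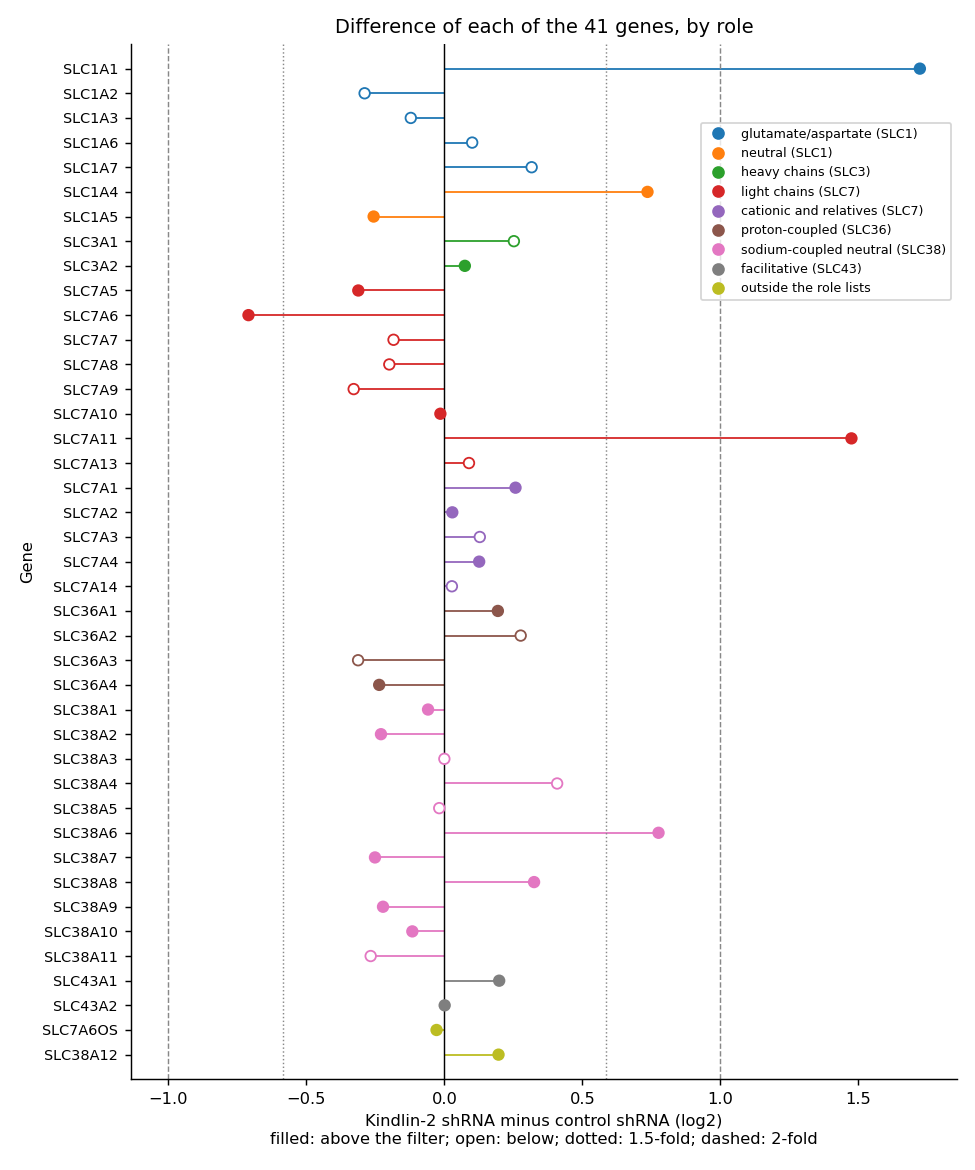
Kindlin-2 shRNA minus control shRNA (log2) for all 41 genes, ordered and coloured by role; filled points passed the filter, open points did not, and dotted and dashed lines mark 1.5-fold and 2-fold. Light chains (red) reach from -0.71 for SLC7A6 to 1.47 for SLC7A11, and no open point passes 1.5-fold.

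The cationic amino acid transporters, which carry arginine and lysine without a heavy chain, and their relatives showed small differences. SLC7A1 (CAT1), the widely expressed arginine transporter, had 9.46 in the Kindlin-2 shRNA array and 9.20 in the control array, a difference of 0.26. This was close to the shift of its surroundings on chromosome 13, 0.27, and the difference was -0.01 once that was subtracted. SLC7A2 (CAT2) had 7.35 and 7.32, and SLC7A4, a relative without known cationic transport, had 6.87 and 6.74. SLC7A3 and the lysosomal SLC7A14 were below the filter, with differences of 0.13 and 0.03. None of these 5 genes passed 1.5-fold. All 5 lay above 0, as did 8604 of all 18417 genes, but SLC7A1, SLC7A2 (-0.10) and SLC7A14 (-0.08) lay below 0 with neighbours subtracted.

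Of the sodium-coupled neutral transporters, 7 of 11 were above the filter and 1 of them was past 1.5-fold. SLC38A6, a less studied member of the family, had 8.02 in the Kindlin-2 shRNA array and 7.24 in the control array, and was 1.71-fold higher. It was 1.84-fold higher than its neighbours on chromosome 14, which had a median of -0.10. A larger increase was seen for 323 of the 11822 genes.

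SLC38A1 and SLC38A2, the system A transporters that load cells with glutamine and alanine, stand side by side among the measured genes of chromosome 12, followed by SLC38A4. SLC38A1 had 12.1 in each array, with a difference of -0.06. SLC38A2, which cells induce when amino acids are short, had 11.9 in the Kindlin-2 shRNA array and 12.2 in the control array, a difference of -0.23. Genes of chromosome 12 were lower as a whole (median -0.21 over 630 genes), and with neighbours subtracted the differences were 0.19 and 0.00. The sign of the SLC38A1 difference thus turned, and nothing of the SLC38A2 difference was left beyond that of its region. SLC38A4, below the filter with 4.42 and 4.01, had the largest difference of the 17 genes under it, 0.41. With its neighbours subtracted this was 0.64, or 1.56-fold.

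The lysosomal members of this family were slightly lower. SLC38A9, which signals lysosomal arginine to mTORC1, had 7.85 in the Kindlin-2 shRNA array and 8.07 in the control array. SLC38A7, the lysosomal glutamine exporter, had 8.22 and 8.48. Both differences, -0.22 and -0.25, were well under 1.5-fold, and they were -0.32 and -0.31 with neighbours subtracted. SLC38A10 had 8.78 and 8.90, and SLC38A8, known from the eye, 6.68 and 6.36. SLC38A3, the glutamine transporter of the proximal tubule and liver, was listed with 5.20 in both arrays, and SLC38A5 and SLC38A11 differed by -0.02 and -0.27, all 3 below the filter. SLC38A12, formerly TMEM104, had 8.66 and 8.47.

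The proton-coupled and facilitative transporters completed the set, and none of them passed 1.5-fold. SLC36A1, which exports amino acids from lysosomes, had 7.60 in the Kindlin-2 shRNA array and 7.41 in the control array. Its difference of 0.19 was close to the 0.16 of its neighbours on chromosome 5, where SLC36A2 and SLC36A3, both below the filter with 0.28 and -0.31, lie next to it. SLC36A4, a high-affinity carrier of proline and tryptophan, had 7.78 and 8.01. The SLC43 proteins carry large neutral amino acids without a gradient: SLC43A1 (LAT3) had 6.82 and 6.62, and SLC43A2 (LAT4) 6.69 in both arrays. SLC43A3 was not analysed here, because its transcript cluster carried another gene's symbol as well.

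**Figure D4:**
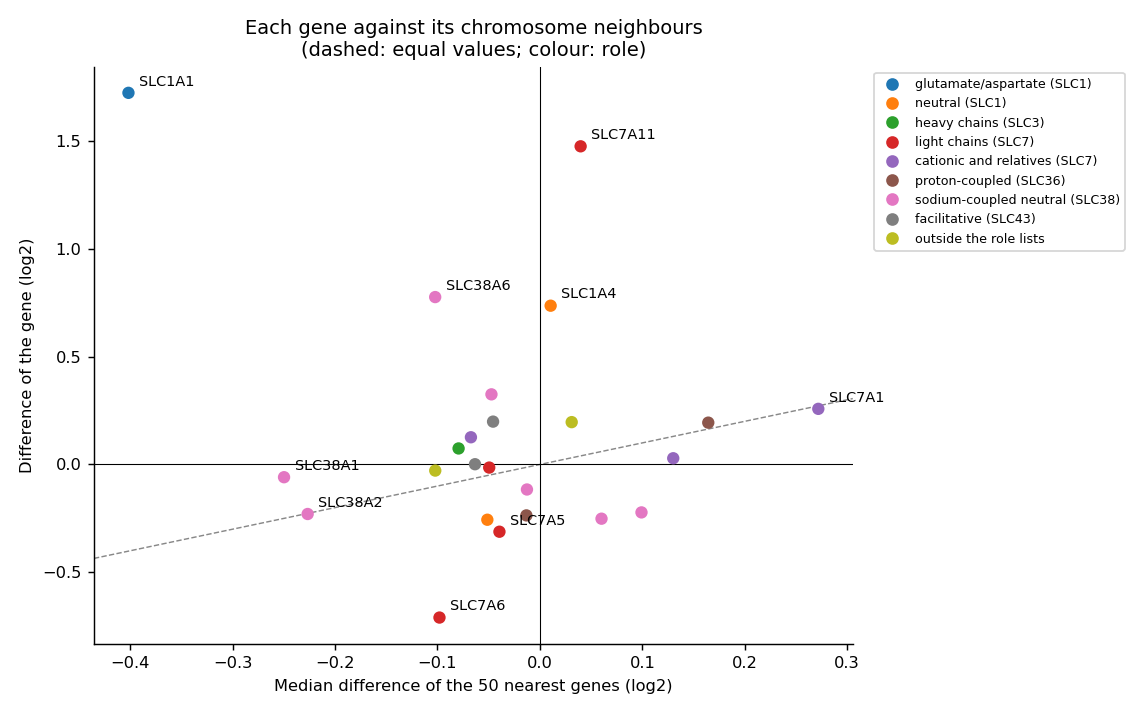
Difference of each of the 24 genes above the filter (log2, vertical) against the median difference of its 50 nearest measured genes on the chromosome (log2, horizontal), coloured by role; the dashed line marks equal values. SLC1A1 lies at -0.40 on the horizontal axis and 1.72 on the vertical, while SLC38A2 and SLC7A1 lie on the dashed line.

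With the median of the 50 nearest genes subtracted, the counts over the 24 genes above the filter were again 4 at least 1.5-fold higher and 1 lower, and 19 of the 24 kept their sign. Over all 41 genes they were 5 higher and 1 lower, the added gene being SLC38A4, which was below the filter in both arrays. The share of all genes past 1.5-fold after the same subtraction was not counted, so these counts have no background beside them. The 5 genes past 1.5-fold before the subtraction lie on chromosomes 9, 4, 14, 2 and 16, so none is a neighbour of another.

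Genes that act with these transporters were described by 8 lists, for which counts past 1.5-fold are set beside the 5.1% higher and 5.23% lower of all genes above the filter. In a list drawn up as other amino acid transporters of the plasma membrane, 1 of 5 members above the filter was higher and none lower. That member, SLC6A15, a sodium-coupled carrier of proline and branched-chain amino acids, had 8.38 in the Kindlin-2 shRNA array and 7.68 in the control array, or 1.63-fold more, although its neighbours on chromosome 12 had a median of -0.13. The tubular transporters SLC6A19, SLC6A20, SLC6A18 and SLC15A2 of this list were below the filter. Its members above the filter include SLC15A4 (0.33) and SLC6A17 (-0.13), whose place in the plasma membrane was not checked.

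SLC7A11 imports cystine, and SLC1A1 and SLC1A4 carry cysteine, from which cells make glutathione. The list of its synthesis and turnover had 1 of 6 members above the filter higher and none lower, with a median of 0.03; GSS, GCLC and GCLM make glutathione, CHAC1 degrades it, GSR recycles it and GPX4 uses it. Glutathione synthetase (GSS), the second enzyme of synthesis, had 10.04 in the Kindlin-2 shRNA array and 9.27 in the control array, or 1.71-fold more. GSS lies on chromosome 20, and with its neighbours subtracted its difference of 0.77 was 0.56, under 1.5-fold. GCLC, the catalytic subunit of the first and rate-limiting enzyme, had 7.69 and 8.10, a difference of -0.41, and its modifier GCLM 8.9 and 8.7. Of the 6 genes, 3 lay above 0 and 3 below. SLC7A11, SLC1A1 and SLC1A4 were grouped here with their values known. Related carriers went both ways: the lysosomal cystine exporter CTNS was at -0.40 and the SLC1 exchanger SLC1A5 at -0.26. Below the filter, SLC7A9 was at -0.33 and its cystine transport partner SLC3A1 at 0.25.

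The response to amino acid deprivation runs from the kinase GCN2 (EIF2AK4) through the transcription factor ATF4, which induces several of the transporters. Of its 12 members none was 1.5-fold higher and 2 were lower, and the median was 0.15. DDIT4, an inhibitor of mTORC1, had 8.93 in the Kindlin-2 shRNA array and 9.75 in the control array, 1.77-fold less. VLDLR, a lipoprotein receptor, had 9.95 and 10.63, 1.61-fold less; it lies on chromosome 9, where its neighbours had a median of -0.38, and with these subtracted its difference of -0.68 was -0.31, under 1.5-fold. ATF4 itself differed by 0.19, asparagine synthetase (ASNS) by 0.15, CHAC1 by 0.10 and DDIT3 (CHOP) by -0.20. These 4 genes were named after their values were seen, and 10 of the 12 stayed under 1.5-fold. The largest increases were TRIB3 (0.38), CEBPB (0.33), ATF3 (0.28) and ATF5 (0.24). Of the 12 genes, 9 lay above 0 and 3 below, beside 5489 above 0 of the 11822 genes above the filter. With neighbours subtracted, ASNS was at 0.42, TRIB3 at 0.21 and CEBPB at -0.01.

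Among the genes by which mTORC1 senses amino acids, 1 of 24 members was higher and 1 lower, with a median of 0.01. The Rag GTPase RRAGD had 8.55 in the Kindlin-2 shRNA array and 7.91 in the control array, 1.57-fold more. Its neighbours on chromosome 6 had a median of 0.23, and the difference without it was 0.42, under 1.5-fold. The methionine-related sensor SAMTOR had 7.11 and 7.98, 1.83-fold less, and lies on chromosome 7, where its neighbours had a median of -0.22. With these subtracted its difference was -0.65, still past 1.5-fold. None passed 1.5-fold among 10 mitochondrial amino acid carriers (median 0.01) and 6 genes listed as lysosomal exporters (-0.13). The same held for 9 genes of glutamine and glutamate metabolism (-0.02) and 8 of branched-chain amino acid breakdown (-0.10). The extremes of these lists were SFXN1, the mitochondrial serine carrier, at 0.42, and CTNS, the lysosomal cystine exporter, at -0.40. The lysosomal list counted SLC29A3 (-0.08) and left out SLC15A4, and the substrates and location of its members were not checked.

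**Figure D5:**
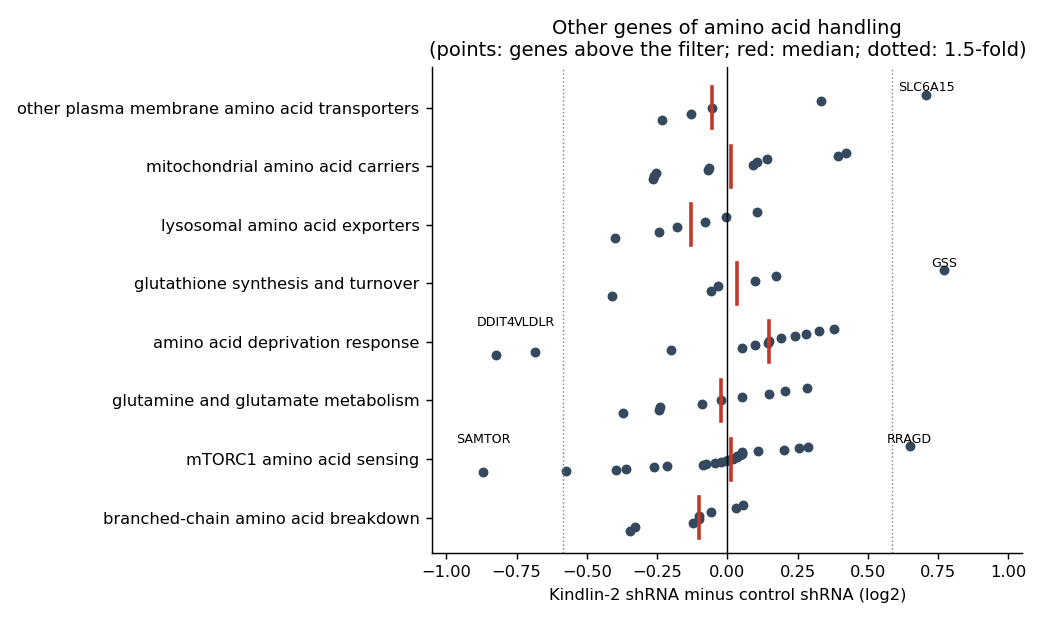
Kindlin-2 shRNA minus control shRNA (log2) for genes above the filter in 8 lists of amino acid handling; each point is a gene, red bars are list medians and dotted lines mark 1.5-fold. The medians lie between -0.13 and 0.15, and SLC6A15, GSS and RRAGD are on the high side and SAMTOR, DDIT4 and VLDLR on the low side of the lines.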

How the data were processed

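Each group was 1 Human Gene 1.0 ST array (Affymetrix), 2 in all, assigned by the shRNA label. Per the submitters' processing notes, the authors ran RMA (Expression Console 1.4.1). The deposited table holds log2 values (range 2.13 to 14.04) of 33297 transcript clusters. RMA corrects background, equalises the distributions and summarises probes, which shrinks differences of dim genes. The sources used here do not state which arrays were normalised together, and the table has no detection calls. The number of arrays limits the precision.

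Symbols came from GEO's platform annotation, updated through Entrez IDs to RefSeq of GRCh38.p14 (19429 of 19460 clusters with a single symbol were found). Excluded were 1754 clusters that carry several symbols and 12083 that carry none. The brightest cluster by mean stood for its gene, and the filter kept 11822 of 18417 genes. Differences were Kindlin-2 shRNA minus control shRNA; no test was possible. Neighbours were the 50 genes above the filter nearest by start position on the chromosome. Named were all genes of the set and, from each pathway list, up to 3 genes per direction past 1.5-fold; others were named after their values were seen. The genes and lists were chosen with earlier results of these data known. Python 3.11.15, pandas 2.3.3 and statsmodels 0.14.6 were used, and the counting was tested on simulated data.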

Additional observations from a re-analysis of the deposited data

How the results depend on the processing

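The counts past 1.5-fold and 2-fold over the genes kept were the same, 4 higher and 1 lower and 2 higher and 0 lower, without the filter, with a filter on the mean of both values or 1 log2 unit higher, after median centring, loess or repeated quantile normalisation, with the mean over a gene's clusters, and with neighbour or chromosome medians subtracted. Except without the filter, the share of all genes past each fold was not counted under these settings. Unchanged counts thus do not show that the genes stood out to the same degree. In place of 2-fold, a threshold of 1.5-fold gave 4 genes higher and 1 lower and a threshold of 3-fold gave 1 higher, by construction. The median difference lay between -0.04 and 0.09 under these settings, and its sign was not stable: it was -0.04 with the higher filter and -0.0019 with median centring. The mean was 0.15, above the median of 0.01. Of the single genes only SLC1A1 moved by more than the robust SD of all differences, 0.28, to 2.12 with neighbour and 2.03 with chromosome medians subtracted. Under the settings that renormalised the arrays, the largest move of a gene of the 24 was 0.061. Leaving out SLC7A6OS was added after seeing the data. No paired analysis was possible because each group was 1 array. With 1 array per group, array noise and differences between cultures cannot be told apart from the effect of the shRNA. Probe-level processing was not varied.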
